A study of Mus musculus with 6 samples.

Results

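Imprinted genes are the subject of this account: 43 genes listed by symbol, whose probe sets were taken from the array by that symbol. The list was drawn up with the difference between Ring1 deletion and control on these same arrays already known, and it is ordered in part by that difference. All differences between the groups are therefore given as descriptions. A call and an adjusted p below state only where a gene stood in the fit across all genes, and nothing is read from how many members were called. Of the 43 genes, 39 had at least 1 probe set annotated to them alone, 105 probe sets in all among the 45101 of the array.

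RNA came from dental pulp of mice killed at postnatal day 17, and 6 Affymetrix arrays were hybridised, 3 labelled Ring1 deletion and 3 labelled control. The deletion mice were Ring1a-/- with Ring1b cko/cko and CreERT2 and were given 4-hydroxytamoxifen, 40 mg/kg, on postnatal days 9 and 13. Control mice were Ring1a-/- with Ring1b flox/flox and CreERT2 and received corn oil on the same days. Ring1a (gene symbol Ring1) was thus absent in every sample, and drug and Ring1b (gene symbol Rnf2) deletion differed together. The sources used here do not name the promoter that drives CreERT2. They also do not say whether animals were pooled. Each array is labelled a biological replicate, and the p-values measure the spread between these arrays. All 7 odontoblast markers on the array and 9 of 10 markers of pulp mesenchyme were called Present on all 3 control arrays, while the tenth, Barx1, was Present on deletion arrays only.

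Imprinted genes are transcribed mainly from the allele of a single parent. Most lie in clusters in which a stretch of DNA, methylated in the germ line of 1 parent, sets which neighbours are read. In several clusters a long noncoding RNA lies opposite the genes it silences: Airn lies opposite Igf2r, and Kcnq1ot1 lies within Kcnq1. Polycomb complexes, to which Ring1a and Ring1b belong as ligases of ubiquitin to histone H2A, act on the silent allele of some such clusters in mouse placenta and embryonic cells. Many imprinted genes govern fetal growth and are turned down after birth. The arrays read total transcript and do not tell the alleles apart, so parental classes below are textbook assignments.

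Each value is a MAS5 signal, the authors' summary of a probe set on a linear scale, and differences are deletion minus control on the log2 scale. The replicate 1 arrays stood apart. The signal of the 3' probe set of Gapdh over its 5' probe set was 1.31 in deletion replicate 1 and 3.08 in control replicate 1, against 0.81 to 0.87 on the other 4 arrays, and the actin ratio was 3.69 in deletion replicate 1 and 6.47 in control replicate 1, against 1.83 to 1.97. A high ratio is a sign of less intact RNA or shorter copies. The Rnf2 probe set used was not lower in deletion (log2 signal 11.63 ± 0.16 in deletion and 11.26 ± 0.14 in control, SD, n = 3 each), and where it lies relative to the deleted part is not known here. Fewer cells of a type and less RNA per cell cannot be told apart in such samples.

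The imprinted genes that rose in deletion were Sfmbt2, Igf2, Grb10, Plagl1, Zdbf2 and Airn. No tested member of the Mest-Copg2, Dlk1-Dio3, Kcnq1, Peg3, Peg10-Sgce, Snrpn-Ube3a and Gnas regions was called. A probe set was kept where MAS5 called it Present on at least 3 of the 6 arrays, and the kept probe set of highest mean stood for its gene, which left 30 imprinted genes among 12250 genes tested. Of these 30, 6 rose and none fell at an adjusted p under 0.05 in limma, where 1.89% of all genes tested rose and 0.759% fell. At an unadjusted p under 0.05, 14 were higher and 0 lower, against 9.3% and 5.85% of all genes. The means of 25 were higher in deletion, against 52.5% of all genes, and the median difference was 0.50, against 0.02. In 14 of the 30 all 3 deletion arrays lay above all 3 control arrays, a pattern that 12.2% of all genes showed, and in none did all 3 lie below, as they did in 8.64% of all genes. When same-numbered arrays were paired in the fit (the replicate block) 13 rose and none fell, where 6.44% of all genes rose and 4.19% fell. The probe sets used for Mirg and Slc22a18 passed the filter only through their deletion arrays, while a second Mirg probe set was Present on 2 control arrays. Among the 26 members that were Present on all 3 control arrays, 6 rose, 12 had all deletion arrays above the controls, and the median difference was 0.42. Of all genes with such calls in control 1.41% rose, all deletion arrays lay above the controls in 1179 of 10999, and their median was 0.00.

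**Figure D1:**
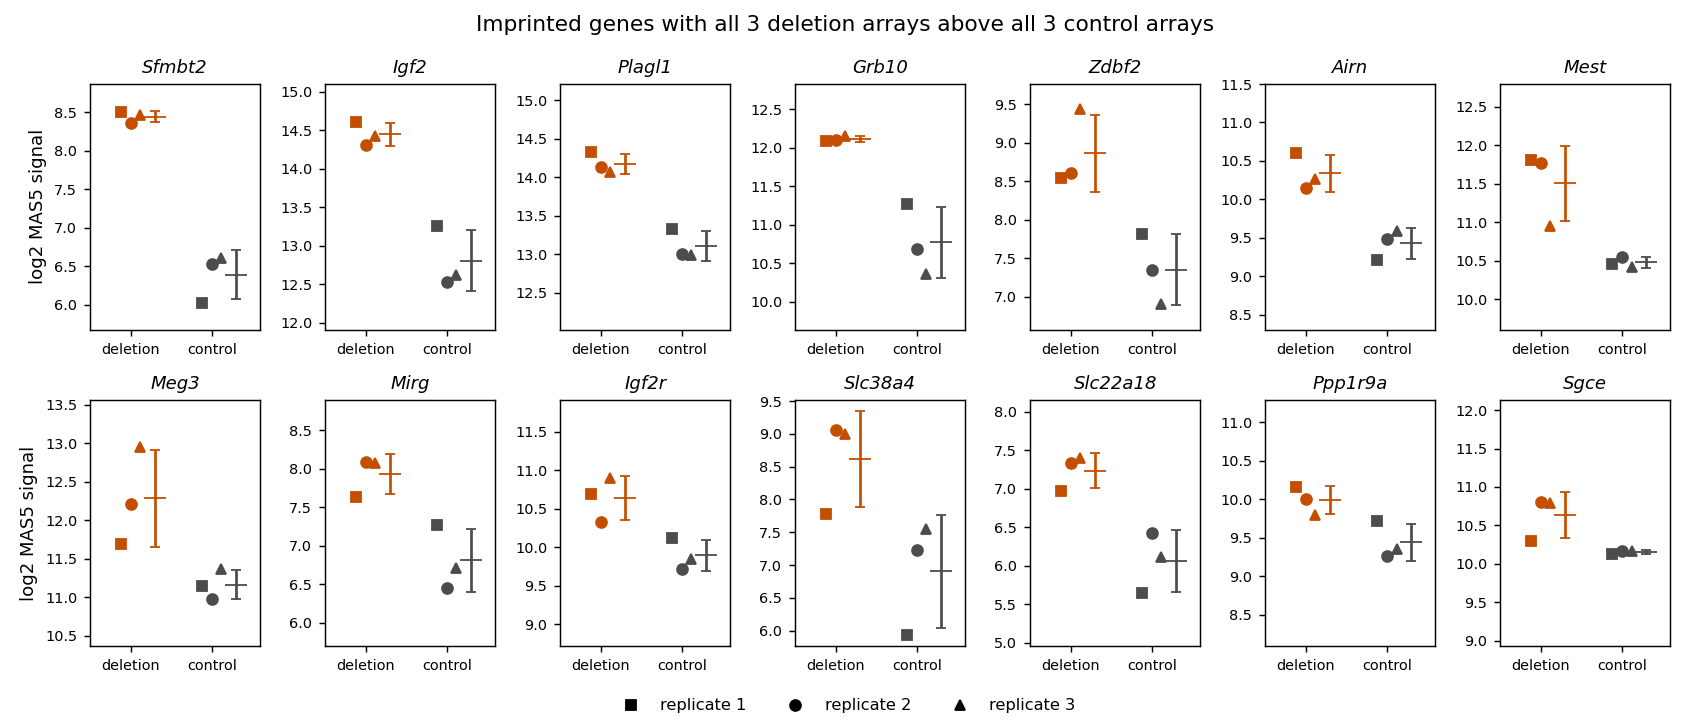
Log2 MAS5 signal of each array for the 14 imprinted genes whose 3 deletion arrays (left) all lie above their 3 control arrays (right); symbols mark the replicate number, and bars are mean ± SD (n = 3 each), with a different range on each vertical axis. Sfmbt2 and Igf2 show wide gaps between the groups, whereas in Slc38a4 both replicate 1 arrays sit low and the groups nearly touch.

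Sfmbt2 encodes a Polycomb group protein with MBT repeats, read from the paternal allele in extraembryonic tissue of the mouse. Its signals were 362, 329 and 354 in deletion and 65.2, 92.7 and 97.5 in control. Every deletion array was more than 3 times as bright as any control array, and the deletion arrays lay close together. The difference was 2.05 ± 0.26 (SE), or 4.15-fold (limma adjusted p = 0.00603). A further Sfmbt2 probe set, below the detection filter, was Present on 1 deletion array and on no control array, with signals of 79.5 to 113 in deletion and 8.27 to 48.3 in control.

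Igf2, the insulin-like growth factor that drives fetal growth, is read from the paternal allele in most tissues. It had signals of 24869.6, 20234 and 22101 in deletion and 9809.6, 5929 and 6318 in control. The brightest control array, replicate 1, stayed below the dimmest deletion array. Igf2 rose by 1.64 ± 0.21 (SE), or 3.12-fold (limma adjusted p = 0.00641). A dimmer Igf2 probe set gave 371, 389 and 457 in deletion and 92.6, 102 and 75.7 in control, or 4.52-fold. Igf2 and H19 share their enhancers. H19 itself has no probe set annotated to it alone, and the probe set annotated to it jointly with the microRNA gene Mir675 stands with the closing observations.

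Plagl1, also called Zac1, is a zinc finger factor that regulates other imprinted genes in the mouse. Its signals were 20511, 17908 and 17239 in deletion and 10318, 8167 and 8105 in control. The groups did not overlap, and replicate 1 was the brightest array in each. Plagl1 rose by 1.07 ± 0.17 (SE), or 2.10-fold (limma adjusted p = 0.0124). A second kept probe set, Present on 2 of the 3 control arrays, gave 901, 538 and 639 in deletion and 246, 129 and 157 in control, or 3.96-fold. The call was lost without control replicate 2 (adjusted p = 0.087) and without control replicate 3 (adjusted p = 0.0575).

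Grb10 encodes an adaptor that dampens signals of the insulin and IGF receptors, and it is read from the maternal allele outside the nervous system. Signals were 4350.0, 4387 and 4569 in deletion and 2469, 1641 and 1319 in control. The deletion arrays differed little among themselves and the control arrays by nearly 2-fold. Grb10 rose by 1.34 ± 0.23 (SE), or 2.54-fold (limma adjusted p = 0.0181), the only maternally expressed member called among those tested, which leave out H19. The call was lost without control replicate 2 (adjusted p = 0.0982), without deletion replicate 2 (0.0603) and without deletion replicate 3 (0.0708).

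Zdbf2 is a paternally expressed zinc finger gene that promotes growth after birth in the mouse. It had signals of 373, 392 and 696 in deletion and 225, 163 and 119 in control. Deletion replicate 3 stood above the other deletion arrays, and the gap between the groups was widest against control replicate 3. Zdbf2 rose by 1.51 ± 0.32 (SE), or 2.85-fold (limma adjusted p = 0.0448). It lay just inside the threshold, and the call was lost under 6 other treatments of the signals or filter, quantile normalization among them (adjusted p = 0.0512 to 0.0722), and without any of 5 arrays, control replicates 2 and 3 and deletion replicates 1, 2 and 3 (0.0562 to 0.167).

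Among the other single loci, Slc38a4, a paternally expressed amino acid transporter gene, had signals of 219, 535 and 514 in deletion and 61.0, 150 and 188 in control. Both replicate 1 arrays were low, and within each replicate number deletion was higher. The difference of 1.71 ± 0.48 (SE) was not called (limma adjusted p = 0.106) and was called with the replicate block (adjusted p = 0.0014). Rasgrf1, which encodes a Ras activator of neurons and is paternally expressed in mouse brain, did not reach the filter. Its brightest signals among probe sets Present on no control array were 111, 286 and 485 in deletion and 12.8, 88.4 and 73.6 in control, with 2 deletion arrays called Present. The ratio of their geometric means was 5.71, which is no lower bound, as not every deletion array was called Present. Lower bounds below use the control signal or, if higher, the lowest signal of a probe set Present on all 3 control arrays.

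Impact, a regulator of translation, had signals of 1187, 1443 and 1071 in deletion and 1052, 967 and 1109 in control. The groups overlapped, with a difference of 0.23 ± 0.18 (SE). Nnat, a small membrane protein gene, differed by 0.30 ± 0.36 (SE), with deletion higher between the replicate 1 arrays by 1.01 and a difference of -0.05 between the other 4. Nap1l5, a histone chaperone relative, differed by -0.22 ± 0.22 (SE). None of these was called. Zrsr1 has no probe set annotated to it.

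**Figure D2:**
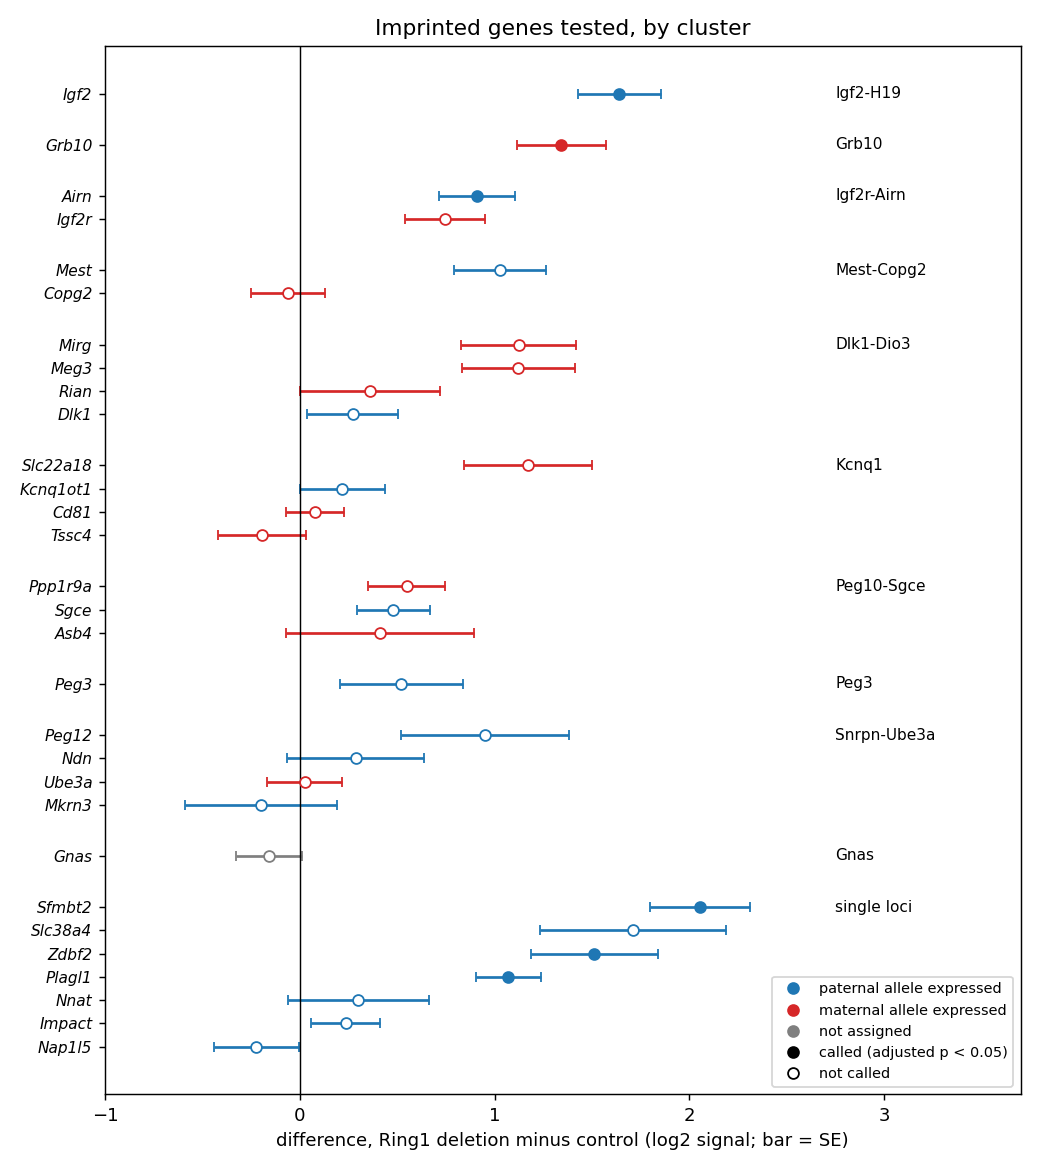
Difference between deletion and control in log2 signal (horizontal axis, bars are SE from limma, n = 3 arrays a group) of the 30 imprinted genes tested, grouped by cluster and coloured by the parental allele usually expressed; filled circles were called. The largest differences are those of Sfmbt2 at 2.05, Slc38a4 at 1.71 and Igf2 at 1.64, and members of the Kcnq1 and Snrpn-Ube3a clusters lie mostly within 0.3 of 0.

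Both members of the Igf2r-Airn pair had higher signals in deletion. Airn is a noncoding RNA of the paternal allele that runs antisense across the start of Igf2r and silences it on that allele. Its signals were 1551, 1132 and 1234 in deletion and 592, 717 and 771 in control. The groups did not overlap, and the replicate 1 arrays differed most. Airn rose by 0.91 ± 0.20 (SE), or 1.88-fold (limma adjusted p = 0.0452), the member just inside the threshold. Its other 3 kept probe sets differed by 0.34 to 0.59 with deletion higher, and with all 4 averaged the adjusted p was 0.146. The Airn call also ended without any single array (adjusted p = 0.0754 to 0.17), under the same 6 other treatments as that of Zdbf2 (0.0507 to 0.0764) and without both replicate 1 arrays (0.0775).

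Igf2r encodes the receptor that takes up IGF2 for breakdown in lysosomes. It had signals of 1649.5, 1293 and 1918 in deletion and 1113, 844 and 925 in control, again without overlap. The difference was 0.75 ± 0.20 (SE), or 1.68-fold, and was not called (limma adjusted p = 0.0995), but was called with the replicate block (adjusted p = 0.0125). Its second probe set differed by 0.54. Whether the amplified material kept the strand is not stated, and reads of Airn and of Igf2r over their shared stretch might not be told apart.

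In the Mest-Copg2 region the neighbours parted. Mest, a paternally expressed gene of embryonic mesoderm, had signals of 3592, 3482 and 1978 in deletion and 1414, 1503 and 1371 in control. Deletion replicate 3 lay well below the other deletion arrays but above all controls. The difference of 1.029 ± 0.237 (SE), or 2.04-fold, was just outside the threshold (limma adjusted p = 0.0586) and was called with the replicate block (0.0046). Copg2, a coat protein gene read antisense to the end of Mest and maternally biased in some tissues, differed by -0.06 ± 0.19 (SE).

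Promoter sequence is shown for the members without overlap between the groups whose window held the hexamer TGCCGC. This is the motif bound by ZFP57, the zinc finger protein that keeps imprints methylated after fertilisation in the mouse. The windows are the 250 bases before a RefSeq start on GRCm38.p6, given 5′ to 3′ on the strand of the gene. Capitals mark the hexamer or its reverse complement GCGGCA. The Zdbf2 window at chr1:63200108-63200357 (plus strand) holds 3, the Mest window at chr6:30737800-30738049 (plus strand) holds 2, and the Plagl1 window at chr10:13090582-13090831 (plus strand) and the Meg3 window at chr12:109540746-109540995 (plus strand) hold 1 each.
Zdbf2: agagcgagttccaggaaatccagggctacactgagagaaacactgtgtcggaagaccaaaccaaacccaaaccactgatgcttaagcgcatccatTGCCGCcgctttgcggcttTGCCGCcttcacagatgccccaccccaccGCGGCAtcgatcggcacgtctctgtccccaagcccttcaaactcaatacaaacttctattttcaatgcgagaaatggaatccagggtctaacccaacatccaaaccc
Mest: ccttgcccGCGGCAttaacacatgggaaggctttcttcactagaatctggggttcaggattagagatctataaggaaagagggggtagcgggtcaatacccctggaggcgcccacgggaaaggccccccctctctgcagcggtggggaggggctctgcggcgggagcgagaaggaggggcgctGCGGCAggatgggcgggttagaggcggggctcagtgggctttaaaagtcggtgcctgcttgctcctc
Plagl1: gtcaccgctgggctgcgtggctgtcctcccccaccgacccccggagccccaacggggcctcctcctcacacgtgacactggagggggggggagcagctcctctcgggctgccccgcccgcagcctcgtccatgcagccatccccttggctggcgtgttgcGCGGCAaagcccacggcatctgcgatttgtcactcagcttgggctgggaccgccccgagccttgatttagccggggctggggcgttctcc
Meg3: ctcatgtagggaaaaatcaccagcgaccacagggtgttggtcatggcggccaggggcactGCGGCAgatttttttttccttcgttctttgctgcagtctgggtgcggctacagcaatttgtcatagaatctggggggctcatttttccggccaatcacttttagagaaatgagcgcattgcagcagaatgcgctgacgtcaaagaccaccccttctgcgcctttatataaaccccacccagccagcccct
Of 38 members with a window, 7 had the hexamer in at least 1 of their windows. It was in 8 of 61 member windows (13.1%) and in 8.68% of all 32851 RefSeq windows, and among windows with at least 10 CG dinucleotides in 22.9% of member windows and 18.3% of all. The Igf2, Sfmbt2, Grb10 and Airn windows did not hold it. Copg2, Nap1l5 and Zim1, which held it, were not among the genes without overlap. The 8-base run GGGGCCCC, a site of PLAGL1 and its own reverse complement, was in 4 member windows (6.56%), of Peg3, Rasgrf1, Ppp1r9a and Begain, and in 0.889% of all windows. Among windows with at least 10 CG dinucleotides it was in 8.57% of member windows, 3 of 35, and in 1.50% of all.

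The Dlk1-Dio3 cluster holds maternally expressed noncoding RNAs and paternally expressed protein genes. Meg3, a long noncoding RNA of the maternal allele, had signals of 3312, 4747 and 7901 in deletion and 2264, 2019 and 2635 in control on its brightest kept probe set. The groups did not overlap, and deletion replicate 3 was far above the rest. The difference was 1.12 ± 0.29 (SE), or 2.18-fold (limma adjusted p = 0.0831), and the replicate block gave 0.00436. Of its 8 kept probe sets 7 were higher in deletion, in 5 without overlap, with differences from -0.00 to 1.42. With the kept probe sets averaged, Meg3 was called.

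Mirg, a maternally expressed host of microRNAs, had signals of 199, 271 and 270.2 in deletion and 154, 87.7 and 104 in control. The probe set used was Present on every deletion array and on none of the controls, so its difference is a bound, at least 2.18-fold. Mirg was not called (limma adjusted p = 0.0894), but was with the replicate block (0.0381). A second Mirg probe set, Present on 2 control arrays, differed by 0.93 (1.90-fold) with overlap, so the bound holds for the probe set used alone. Rian, a maternally expressed host of small nucleolar RNAs, differed by 0.36 ± 0.36 (SE) on the probe set used, whose control replicate 1 signal of 770.5 exceeded every deletion array (461, 527 and 621). Its other 3 kept probe sets differed by 0.51, 1.05 and 1.07, and 1 of these showed no overlap.

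Dlk1, the paternally expressed Notch-like ligand that restrains fat cell formation, had signals of 444, 435 and 349 in deletion and 435, 316 and 279 in control. The groups overlapped, and the difference of 0.27 ± 0.23 (SE) was not called. Dio3, which inactivates thyroid hormone, and Begain have no probe set annotated to them. Between the replicate 1 arrays alone the difference of Meg3 was 0.55, of Mirg 0.37 and of Rian -0.74, and between the other 4 arrays it was 1.41, 1.50 and 0.91.

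In the Kcnq1 cluster 3 of the 4 tested members lay near 0. Slc22a18, a transporter gene read from the maternal allele, had signals of 125, 161 and 168 in deletion and 49.8, 86.1 and 69.3 in control. Like the Mirg probe set used, it was Present on deletion arrays only, on all 3, and its signal there was at least 2.25-fold higher. It was not called (limma adjusted p = 0.108), but was with the replicate block (0.0379). Kcnq1ot1, the noncoding RNA of the paternal allele, differed by 0.22 ± 0.22 (SE) on its brightest probe set, with signals of 572, 858 and 920.2 in deletion and 599, 704 and 679 in control.

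Other Kcnq1ot1 probe sets did not move alike. On 1 of them the signals were 534, 372 and 391 in deletion and 309, 216 and 178 in control, a difference of 0.90 without overlap. A dimmer one, Present on 1 control array, differed by 0.99, also without overlap, while 2 differed by 0.09 and -0.08. Cd81, a tetraspanin gene, differed by 0.08 ± 0.15 (SE) at bright signals of 12578 to 14199.6 in deletion and 11636 to 13367 in control. Tssc4, its neighbour, differed by -0.20 ± 0.23 (SE). Kcnq1, a potassium channel gene, was Present on no deletion array and on 1 control array, with signals of 54.1 to 71.1 in deletion and 88.6 to 147 in control. It did not pass the filter, and its deletion arrays all lay below the controls, with a ratio of geometric means of 0.54. Phlda2, which restrains placental growth, was Present on no array. Ascl2, a trophoblast transcription factor, was Present on no deletion array and on 1 control array for 1 of its 3 probe sets.

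Cdkn1c, the maternally expressed cell cycle inhibitor p57 of the same cluster and no member of the list, was called: its mean log2 signal was 12.78 ± 0.24 in deletion and 11.81 ± 0.17 in control (SD, n = 3 each), a rise of 0.97 ± 0.18 (SE; limma adjusted p = 0.0264).

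In the Peg10-Sgce cluster the 3 tested members were all higher in deletion and none was called. Sgce, encoding epsilon-sarcoglycan of the paternal allele, had signals of 1254, 1796 and 1779.5 in deletion and 1118, 1147 and 1151 in control. The control arrays were nearly equal and all below deletion. The difference was 0.48 ± 0.19 (SE), and a dimmer Sgce probe set differed by 1.29. Ppp1r9a, encoding neurabin and maternally expressed in some tissues, had signals of 1145, 1028 and 888 in deletion and 837, 612 and 653 in control, without overlap. It differed by 0.55 ± 0.20 (SE), which was not called (limma adjusted p = 0.211) except with the replicate block (0.047), and its other 2 kept probe sets differed by 0.65 and 0.78, also without overlap. Asb4 differed by 0.41 ± 0.48 (SE). Peg10, derived from a retrotransposon, was Present on no array.

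Peg3, a paternally expressed zinc finger gene of growth and maternal behaviour in the mouse, had signals of 9087, 6400.4 and 6194 in deletion and 8501, 3874 and 3697 in control. Replicate 1 was the brightest array in each group, and control replicate 1 lay above deletion replicates 2 and 3. The difference was 0.52 ± 0.31 (SE; limma adjusted p = 0.51), and its other 2 kept probe sets differed by 0.44 and 0.85. Without both replicate 1 arrays, a choice made after seeing the data, the difference was 0.73 (adjusted p = 0.0261). Its neighbours Usp29, a ubiquitin protease gene, and Zim1, a zinc finger gene, did not pass the filter. Usp29 was Present on no array, and Zim1 was Present on no deletion array and on 1 control array.

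The Snrpn-Ube3a region, the mouse counterpart of the Prader-Willi and Angelman syndrome region, showed no called member. Ndn, the growth suppressor necdin of the paternal allele, had signals of 3626, 2424 and 1999.9 in deletion and 3796, 1580.0 and 1616 in control. Replicate 1 was far brighter than the other arrays in both groups, and all 5 kept probe sets differed by 0.06 to 0.29. Ube3a, an E3 ubiquitin ligase read from the maternal allele in neurons, differed by 0.02 ± 0.19 (SE), and its 5 kept probe sets ranged from -0.44 to 0.59. Peg12, a relative of the Wnt pathway gene Frat1, differed by 0.95 ± 0.43 (SE) at dim signals of 65.4 to 118 in deletion and 33.3 to 65.8 in control (limma adjusted p = 0.343). Mkrn3, a ring finger gene that restrains the onset of puberty, differed by -0.20 ± 0.39 (SE). Magel2 and the probe set annotated to Snrpn alone were Present on no array.

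Gnas, which encodes the stimulatory G protein alpha subunit and is read from either parent's allele by transcript, had signals of 16048, 15378 and 21033 in deletion and 19328, 19166 and 19474 in control. The 3 control arrays were nearly equal and lay within the deletion range. The difference was -0.16 ± 0.17 (SE), and the other 2 kept probe sets differed by -0.19 and -0.09.

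**Figure D3:**
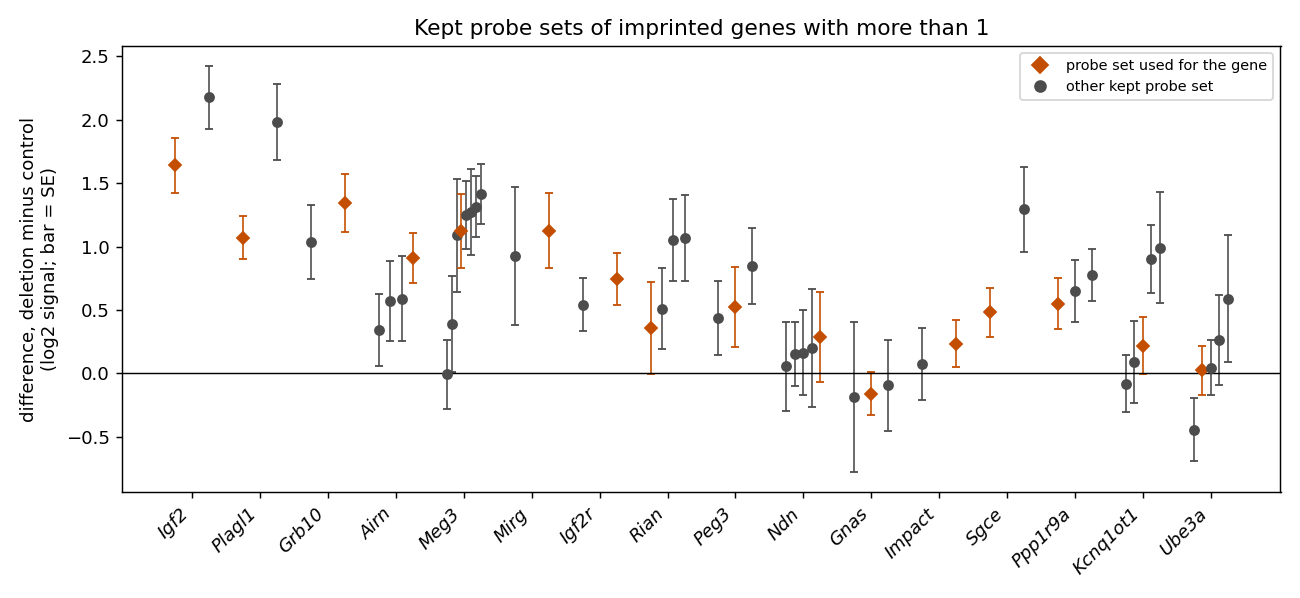
Difference between deletion and control in log2 signal (vertical axis, bars are SE, n = 3 arrays a group) of every kept probe set of the 16 imprinted genes that had more than 1, with the probe set used for the gene as an orange diamond. The Meg3 probe sets spread from -0.00 to 1.42 and those of Kcnq1ot1 from -0.08 to 0.99, while the 5 of Ndn lie between 0.06 and 0.29.

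Grouped by the allele usually expressed, 5 of 17 paternally expressed members tested rose and 1 of 12 maternally expressed members did. Of all genes tested 1.89% rose. The paternal median difference was 0.52 and the maternal 0.48 (0.61 and 0.40 with quantile normalization), with means higher in deletion for 15 of 17 and for 10 of 12. All 3 deletion arrays lay above the controls in 8 of the 17 and in 6 of the 12, against 12.2% of all genes. With the replicate block 7 paternally and 6 maternally expressed members rose, where 6.44% of all genes did. Mirg and Slc22a18 are maternally expressed, and the probe sets used for them passed the filter through deletion arrays alone. Without these genes, 4 of 10 maternal members lay above all controls, 4 rose with the block, and the median was 0.39. The difference between the classes was not tested. Of 24 paternally and 17 maternally expressed genes listed, 22 and 16 had a probe set annotated to them alone. The maternal gene without one, H19, was thus not counted. Its joint probe set with Mir675 was 2.97-fold higher in deletion, without overlap. Within clusters, members of opposite parental class were both higher in Igf2r and Airn, and in Sgce and Ppp1r9a. In the Dlk1-Dio3 cluster the larger differences were on the maternal side, and in Mest-Copg2 on the paternal side. The 5 noncoding members tested (Airn, Meg3, Mirg, Rian and Kcnq1ot1) all had higher means in deletion, with a median of 0.91, and 1 rose. The Mirg probe set used had passed the filter through the deletion arrays alone. Of 25 protein coding members 20 were higher, with a median of 0.48, and 5 rose.

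**Figure D4:**
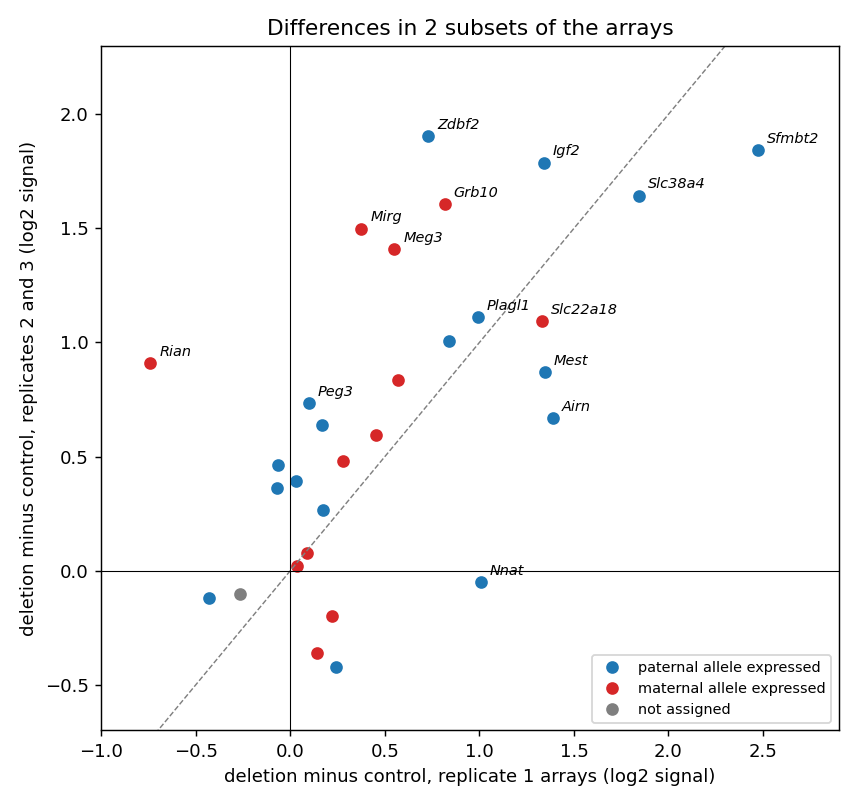
Difference between deletion and control in log2 signal between the replicate 1 arrays (horizontal axis) and between the arrays of replicates 2 and 3 (vertical axis) for the 30 imprinted genes tested, coloured by parental allele; the dashed line marks equal differences. Sfmbt2, Airn and Mest lie to the right of the line, and Zdbf2, Grb10, Meg3, Mirg and Rian above it.

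The replicate 1 arrays gave a median difference of 0.33 over the 30 genes and the other 4 arrays 0.65, against 0.01 and 0.03 over all genes tested. The difference was positive in 25 of the 30 between the replicate 1 arrays and in 24 between the others. Sfmbt2 differed by 2.48 and 1.84 in these subsets, Igf2 by 1.34 and 1.79, Plagl1 by 0.99 and 1.11, Grb10 by 0.82 and 1.61, and Airn by 1.39 and 0.67. The part of RNA integrity in these values was not tested.

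Further genes reported as imprinted in some mouse tissue, outside the list of 43, were read in the same fit. As the list of 43 was drawn up with this difference known, the genes outside it are not an independent comparison. Among 31 tested there were 2 that rose and 0 that fell, where 1.89% of all genes rose and 0.759% fell. The mean was higher in deletion for 16 and lower for 15, with a median of 0.04. Beside Cdkn1c the gene called was Pde10a, a phosphodiesterase gene, Present on 1 control array, with a difference of 3.36 ± 0.42 (SE; limma adjusted p = 0.00603). Not called were Smoc1 at 1.02 ± 0.26, Osbpl5 of the Kcnq1 cluster at 0.77 ± 0.21, Adam23 near Zdbf2 at 0.96 ± 0.28 and Atp10a at 0.92 ± 0.35 (SE). At an unadjusted p under 0.05, 6 were higher and 1 lower, against 9.3% and 5.85% of all genes. With the replicate block 5 rose and 1 fell, against 6.44% and 4.19%.

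Genes of IGF2 signalling were measured beside Igf2. Of 16 tested, 3 rose and none fell, with a median of 0.44, where 1.89% of all genes rose and 0.759% fell. Igf2bp1, a fetal RNA-binding protein that binds Igf2 transcripts, was Present on none of the control arrays. It rose at least 14.7-fold (limma adjusted p = 0.00822). Its relative Igf2bp3 rose by 1.28 ± 0.22 (SE; adjusted p = 0.0182) in the same limma fit. Igfbp5, which binds IGFs outside cells, rose by 1.42 ± 0.21 (SE; limma adjusted p = 0.0106). Pik3r1, a regulatory subunit of PI3 kinase, differed by 0.64 ± 0.16 (SE) and was not called. Igf1, the postnatal growth factor, differed by 0.91 ± 0.23 (SE; limma adjusted p = 0.0761). With the replicate block 8 of the 16 rose, where 6.44% of all genes did.

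Of 20 factors that set or keep imprints tested, none rose and 1 fell, where 1.89% of all genes rose and 0.759% fell. The median was 0.02. With the replicate block 1 rose and 3 fell, against 6.44% and 4.19% of all genes. All 3 deletion arrays lay above the controls in 1 and below them in 5, against 12.2% and 8.64%. Uhrf1, which brings the maintenance methylase to replicated DNA, fell by 1.80 ± 0.35 (SE; limma adjusted p = 0.0307). Hells, a remodeller needed for methylation, differed by -1.32 ± 0.30 and Dnmt1, the maintenance methylase, by -0.61 ± 0.18 (SE). Tet2, which oxidises methylcytosine, differed by 0.68 ± 0.21 and Smchd1 by -0.37 ± 0.17 (SE). None of these was called without the replicate block, and with it Hells and Dnmt1 fell and Tet2 rose. Uhrf1 and Dnmt1 are also transcribed with DNA replication, and of 19 genes of G2/M and mitosis tested 9 fell and none rose, with a median of -1.49. Those called were Cdca8, Bub1b, Ect2, Cdc20, Kif11, Top2a, Mki67, Ccna2 and Prc1. The part of cell division in the differences of Uhrf1 and Dnmt1 was not tested.

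Of 25 Polycomb subunits tested, 0 were called in limma in either direction. At an unadjusted p under 0.05, 4 were higher and 0 lower, against 9.3% and 5.85% of all genes. With the replicate block 2 rose, where 6.44% of all genes did. Bmi1 differed by 0.62 ± 0.18, Jarid2 by 0.60 ± 0.19, Phf1 by 0.51 ± 0.21 and Rnf2 by 0.37 ± 0.17 (SE), all higher in deletion. The Ring1 probe set did not pass the filter.

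Markers of other cell types were read beside the imprinted genes, as signals summed over each list. The cartilage list, whose tissue expresses Igf2 and H19 in the mouse, ranged over 2566 to 4836 in deletion and 1339.9 to 2924 in control, and 4 of its 5 tested genes had higher means in deletion. Col2a1, the main cartilage collagen, was not called Present on any control array and rose at least 10.7-fold (limma adjusted p = 0.0017). It was the only cartilage marker called without the replicate block, and Col9a1 and Col9a2 differed by 1.45 ± 0.42 and 1.24 ± 0.59 (SE). The part of cartilage cells in the differences of the imprinted genes was not tested. Pulp mesenchyme markers ranged over 104161 to 114856 in deletion and 74853 to 102828 in control, with 1 of 10 called, Ogn, which rose by 1.41 ± 0.22 (SE). The median difference of this list was 0.56, with 7 of 10 means higher, and that of the cartilage list 1.24, beside the 0.50 of the imprinted genes. The part of pulp mesenchyme in the differences of the imprinted genes was not tested. Endothelial markers ranged over 3643 to 3738 in deletion and 2693 to 4196 in control, and macrophage markers over 17222 to 25384 in deletion and 15626 to 18933 in control, with none called in either list. Pericyte and smooth muscle markers ranged over 11777 to 17814 in deletion and 11398 to 14452 in control, and skeletal muscle markers over 752 to 1785 in deletion and 813 to 1179 in control, with none called. Odontoblast markers ranged over 121722 to 140654 in deletion and 118554 to 153053 in control, and Schwann cell and nerve markers over 3826 to 4684 in deletion and 2795 to 4552 in control, with none called in either list. The 3 red blood cell markers on the array did not pass the detection filter and were not tested. Their sums ranged over 68.1 to 99.2 in deletion and 161 to 663 in control, without overlap. Dental epithelium markers ranged over 57470.4 to 207311 in deletion and 133938 to 181649 in control, and 2 of 14 fell, Shh and Sp6. With the replicate block 3 of 5 cartilage genes and 4 of 10 pulp mesenchyme genes rose and none fell. In that fit 1 macrophage gene rose, 2 pericyte and smooth muscle genes rose and 2 fell, and 1 odontoblast gene rose and 1 fell. Of dental epithelium genes 1 rose and 5 fell, where 6.44% of all genes rose and 4.19% fell. No gene of the endothelial, Schwann cell and skeletal muscle lists was called with it.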

How the data were processed

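RNA of mouse dental pulp was measured on 6 arrays. Per the labels' protocols, RNA was amplified with the Ovation Pico WTA kit and again by in vitro transcription before biotin labelling, steps that can skew levels. The deposited values are probe set intensities that the authors made with MAS5, per the submitters' processing notes. The mean after trimming 2% at each end was 500.0 on every array. The deposited detection calls are listed under headers that show a group but no replicate number, and 12 further columns beside them were not used. The sources used here give neither software version nor genome build.

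Log2 was taken after raising signals under 1 to that value, and nothing was normalized again. Of the probe sets, 34958 had 1 symbol in the platform annotation, 932 several and 9211 none. Those with 1 symbol that were Present on at least 3 arrays were kept (21614, array controls left out), and 12250 genes were tested with limma 3.58.1 in R 4.3.3 (intensity trend, two-sided, Benjamini-Hochberg over all genes). The step was tested on simulated data. Every member is named in the text, as are Ring1, Rnf2 and from each other list the called genes and up to 4 others with the smallest p. Members and lists were chosen with earlier results of these data known. After subtracting group means, arrays sharing a number correlated at 0.485, 0.189 and 0.286, all over 0.1, so the numbers in the titles were taken as pairs in the replicate block. Deletion 2 with control 3 (0.213) and deletion 3 with control 2 (0.117) were over 0.1 as well, so this mainly sets replicate 1 apart. Alternatives covered normalization, low signals, detection, probe set choice, variance moderation, array weights, the block and each array left out. Precision is limited by the number of arrays. Promoters are from RefSeq.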

Additional observations from a re-analysis of the deposited data

Results flagged for a closer look

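The probe set annotated jointly to Mir675 and H19 was left out of the comparison of genes, because it names more than 1 gene, and its signal in deletion lay above every control array. It read 17728, 14868 and 20326 in deletion and 6845, 4871 and 6117 in control, and was Present on all 6 arrays. The ratio of the geometric means was 2.97, beside 3.12 for Igf2, and with probe sets fitted separately in limma its adjusted p was 0.00944.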

How the results depend on the processing

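Sfmbt2 and Igf2 were called under all 17 alternatives fitted by gene, the added fit without both replicate 1 arrays included. The number of imprinted genes that rose, 6 in the text, was 13 with array quality weights, where 5.64% of all genes rose, and 13 with the replicate block, where 6.44% did. The block moved Mest, Meg3, Mirg, Igf2r, Slc38a4, Slc22a18 and Ppp1r9a past the threshold and changed no other call of a member. It ranged from 2 to 5 with each array left out, where 0.669% to 1.79% of all genes rose, with 2 left when control replicate 2 was dropped, and 3 for control replicate 3 or deletion replicate 2. It was 4 to 6 with other normalizations, low-signal settings, filters, probe set averages or no trend, where 1.02% to 2.07% of all genes rose. Without both replicate 1 arrays it was 9, where 2.72% of all genes rose. With every kept probe set tested separately it was 5, namely Grb10, Igf2, Meg3, Plagl1 and Sfmbt2. Zdbf2 and Airn thus lost their call there, and the share of all probe sets that rose was not counted. None fell under any alternative. The median difference of the paternally expressed members, 0.52, was 0.61 with quantile normalization, 0.42 with no detection filter, 0.60 with the mean of probe sets, 0.72 with array quality weights and 0.67 without both replicate 1 arrays, and ranged from 0.49 to 0.80 with each array left out. That of the maternally expressed members, 0.48, was 0.74 with array quality weights and 0.72 without both replicate 1 arrays, and ranged from 0.37 to 0.75 with each array left out. Over all members tested the median, 0.50, was 0.36 with no detection filter, 0.62 with the mean of probe sets, 0.68 with array quality weights and 0.65 without both replicate 1 arrays, and ranged from 0.46 to 0.75 with each array left out. The cause was not tested, except that without the filter 39 genes rather than 30 enter. Single genes near 0 changed sign: Ube3a was -0.030 with median centring and Nnat -0.052 without both replicate 1 arrays, and with each array left out Ube3a ranged from -0.12 to 0.16, Nnat from -0.011 to 0.56, Mkrn3 from -0.35 to 0.070, Copg2 from -0.19 to 0.025 and Asb4 from -0.098 to 0.69. Apart from the fit of separate probe sets, the 4 called members that lost their call under some of these are given with those values in the text. With 3 arrays a group and dim signals scattering widely on a log scale, small differences of dim probe sets were not detectable.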

Other observations

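Of the 6 probe sets annotated jointly to Snurf and Snrpn, 2 were Present on all 6 arrays. Their signals were 49.1, 65.9 and 112 in deletion and 32.2, 205 and 185 in control on the first, and 424, 636 and 555 in deletion and 1137, 891 and 440.1 in control on the second, and the groups overlapped on each. The probe set annotated jointly to Airn and Igf2r was Present on no deletion array and on 1 control array.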
